A study of Mus musculus with 6 samples.

Results

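Among the cells of mouse neural tube organoids, the deposited cell annotation names 1 class "Proliferative neural progenitor". It holds 399 of the 11981 cells of a 4-library time course and 399 of the 16282 annotated cells of the series. Members were chosen by that name alone, and they are the whole of the authors' cluster 12, of which no cell carries another name. The organoids were grown from embryonic stem cells of the Sox1::eGFP;Bra::mCherry line, which carries fluorescent reporters for the neural gene Sox1 and the mesodermal gene Bra. Small cell groups in Matrigel received bFGF and activin-A for the first 3 days and neural basal medium (N2B27) afterwards. The cells described here came from elongated organoids at day 7, day 8 and day 10, and the same table holds an elongated day 6 library. Organoids kept past day 6 were re-embedded singly, and each library pooled 100 organoids before droplet capture with a 10x 3′ kit. A library is therefore 1 pool of organoids from 1 line, and days 7, 8 and 10 have no replicate. The class was also made by grouping these same cells by their transcripts, so its differences from other classes are given as descriptions with no test.

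In the developing neural tube, progenitors divide under Notch signalling, and cells that begin to differentiate switch on proneural transcription factors such as Neurog1, Neurog2 and Atoh1. These factors induce Notch ligands (Dll1, Dll3) in the cell that carries them and lead to Insm1, a zinc finger factor known from basal progenitors of the cortex, before the cell leaves the cycle and makes neuronal proteins. Nusap1, the other marker set for the class, encodes a spindle protein made in G2 and mitosis. The combination of the 2 genes is what an intermediate progenitor, committed but still dividing, would carry.

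The class gave 4075041 transcript counts (UMIs, unique molecules) at day 7, 5286588 at day 8 and 4568285 at day 10. The median class cell had 46940.5, 30684 and 27476 UMIs on these days, against 48555, 31475.5 and 21833 in all other cells. Median mitochondrial share in the class was 4.31%, 5.25% and 5.49%. Cells with more than 2 times their library's median UMIs made up 1.22%, 4.40% and 7.59% of the class, against 3.26%, 5.22% and 4.12% of the other cells. Levels below (CPM) are a gene's UMIs per 1000000 UMIs of all cells of a class in 1 library pooled. All intervals are 95% intervals for counting error only (exact Poisson for levels, exact Clopper-Pearson for shares), and the limit given for a count of 0 is 3 counts of the total, because PCR, organoids and handling are not replicated.

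No cell of the class was found in the day 6 library of this time course, and it was a small share of the later ones. At day 6 it had 0 of 2402 cells, which allows a share of up to 0.125% (3 cells of the total; the exact upper limit is 0.153%). It made up 3.20% (2.55 to 3.95) at day 7, 82 of 2565 cells, 4.76% (4.07 to 5.54) at day 8, 159 of 3337 cells, and 4.30% (3.66 to 5.00) at day 10, 158 of 3677 cells. The intervals of day 8 and day 10 overlap. Across all 4 libraries 14 cell barcodes occurred in 2 libraries each, and none of them belonged to the class.

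**Figure D1:**
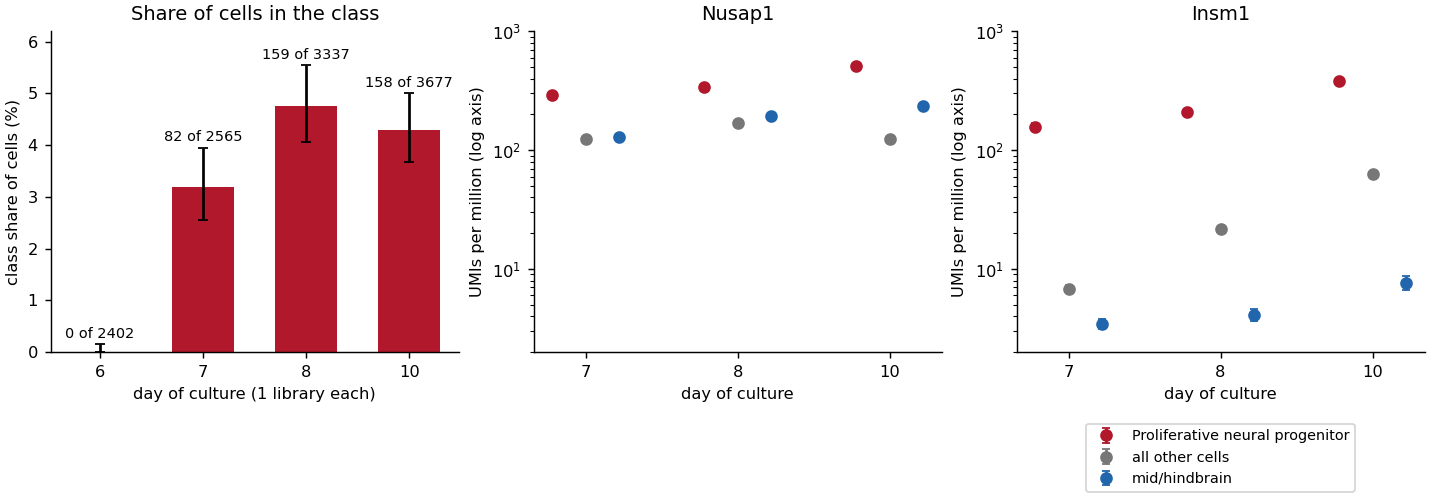
Bars give the class as a percentage of each library's cells at days 6, 7, 8 and 10; points give pooled Nusap1 and Insm1 levels (CPM, log axis) in the class, in all other cells and in mid/hindbrain at days 7, 8 and 10. Error bars are 95% intervals for counting error, and class levels of Insm1 lie at 157.5, 207.5 and 381.3 CPM against 6.86, 21.8 and 62.4 CPM in the other cells.

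Both markers stood higher in the class on every day. Insm1 (chr2:146221921-146225020, plus strand, mm10) stood at 157.5 CPM (145.6 to 170.2) in the class at day 7, 207.5 (195.4 to 220.2) at day 8 and 381.3 (363.6 to 399.7) at day 10. In all other cells of the same libraries it stood at 6.86 (6.41 to 7.32), 21.8 (20.9 to 22.7) and 62.4 (60.7 to 64.1) CPM. The log2 ratios were 4.33, 3.19 and 2.59. Nusap1 (chr2:119618298-119651244, plus strand) stood at 289.3 CPM (273.0 to 306.3), 342 (326.4 to 358.1) and 510.9 (490.4 to 532.1) in the class and at 124.9 (123.0 to 126.9), 170.4 (168.0 to 172.8) and 123.0 (120.7 to 125.4) in the other cells. Its log2 ratios were 1.21, 1.00 and 2.05, and both genes were higher in the class than in any other class of at least 20 cells on each of the 3 days. At day 8 this order for Insm1 rests on 24 cells with a Dbx1 UMI, described further on: in the other 135 class cells it stood at 153.9 CPM, against 160.3 CPM in dorsal interneuron 2. The markers helped to make the clusters, so this checks the name and is not a finding.

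Per cell, the 2 markers were often found in the same cell of the class. With every cell reduced at random to 10000 UMIs, which left out 0, 1 and 0 class cells, both transcripts were found in 40 of 82 class cells at day 7 (48.8%), 92 of 158 at day 8 (58.2%) and 116 of 158 at day 10 (73.4%). The shares that the 2 single detection rates would give by independence are 50.6%, 57.5% and 70.1%. The observed shares lie within their counting error of these (37.6 to 60.1, 50.1 to 66.0 and 65.8 to 80.1). Both transcripts were found in 1.25%, 2.36% and 1.98% of the other cells. Dorsal progenitor 2/3 (dP2/3) had the next highest share at day 7, 10 of 66 cells (15.2%), and again at day 8, 17 of 295 cells (5.76%). As a gauge of free RNA at day 10, Nusap1 was found in 7 of 431 cells of dorsal interneuron 1 (1.62%), a class of neurons that should lack it. This was the class lowest in Nusap1, at 1.32 CPM pooled. Dorsal interneurons 2 and 3 stood at 5.75 and 5.69 CPM, so the gauge may be too low for other classes. Insm1 was found in 1 of 105 cells of the pre-EMT vagal/trunk neural crest (0.952%), likewise picked as a class of low detection. All shares here are at the same thinned depth; before thinning the medians were 20215 UMIs in dorsal interneuron 1 and 27476 in the class.

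Genes of G2 and mitosis were higher in the class as a group, with the widest gap at day 10. All 54 genes of the list passed the level filter (a mean of the 2 sides of at least 5 CPM). At day 7, 3 of 54 were at least 2-fold higher than in the other cells and none 2-fold lower, where 2.46% of all 9200 genes were 2-fold higher. At day 8 it was 6 of 54, where 2.02% of all 9378 genes were, and at day 10 48 of 54, where 3.46% of all 9678 genes were. List medians were 0.51, 0.66 and 1.50 on the log2 scale, beside medians over all genes of -0.07, -0.01 and -0.08. The summed level of the list was 13566, 17628 and 20747 CPM in the class and 9538, 11565 and 7816 CPM in the other cells. Other cells at day 10 included 1176 interneurons, which carried few of these transcripts, with medians of 0.145%, 0.160% and 0.150% of a cell's UMIs for their 3 classes.

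Nusap1, Top2a and G2e3 were the genes of the list at least 2-fold higher on all 3 days. Nusap1 is a marker of the class and is counted in the list. Its log2 ratio at day 8 was at the 2-fold line, 1.00, and was 0.955 with the day 8 cells holding a Dbx1 UMI left out. Top2a, the topoisomerase that untangles chromosomes before division, stood at 899.1, 1469 and 1759.5 CPM in the class and at 404.7, 670.1 and 448.2 CPM in the other cells. Mki67, the proliferation antigen Ki-67, stood at 264.8, 351.6 and 483.8 CPM in the class and at 144.9, 198.1 and 146.3 CPM elsewhere. Cdk1, the kinase that drives entry into mitosis, stood at 266.7, 296.2 and 336.4 CPM against 162.3, 160.4 and 92.7 CPM. Cdc25b, the phosphatase that activates it and no member of the list, was farther apart, at 157.1, 126.0 and 118.2 CPM against 20.1, 35.3 and 33.9 CPM (log2 ratios 2.90, 1.81 and 1.77). Top2a and Mki67 were each higher in the class than in any other class of at least 20 cells on every day. Cdc25b was also highest in the class, but at days 8 and 10 its counting interval overlapped that of the next class. This was dorsal progenitor 1 at day 8, with Cdc25b at 110.6 CPM, and dP2/3 at day 10, at 111.5 CPM. Top2a in these classes stood at 63.03 and 40.01 CPM, so high Cdc25b was shared with classes low in Top2a.

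The mid/hindbrain class, the largest dividing population, gave a closer comparison. Against it the G2 and mitosis list had 4, 2 and 5 of 54 genes at least 2-fold higher and none lower, with medians of 0.50, 0.52 and 0.67. The share of all genes that were 2-fold higher was 2.74%, 3.65% and 5.42%. Top2a in mid/hindbrain cells stood at 405.4, 730.9 and 863.0 CPM, so the ratio was near 2-fold on each day (log2 1.15, 1.01 and 1.03). The 45 genes of DNA replication and S phase differed less. Their medians were -0.12, 0.16 and 0.80 against all other cells and -0.15, 0.01 and 0.11 against mid/hindbrain. Rrm2, a subunit of the enzyme that makes deoxyribonucleotides, stood at 344.5, 560.7 and 635.9 CPM in the class and at 262.5, 349.2 and 328.9 CPM in mid/hindbrain. Pcna, the sliding clamp of the replication fork, stood at 321.0, 444.0 and 417.9 CPM in the class and at 357.1, 397.2 and 375.0 CPM in mid/hindbrain.

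Many promoters of this list hold 2 known elements, shown here because the genes were higher together. Cell cycle genes of G2 are known to be repressed in resting cells through the CHR element (TTTGAA or TTCGAA), often beside CCAAT boxes that NF-Y binds. In RefSeq windows of 300 bases on GRCm38.p6 (250 before to 50 after the start), searched on both strands, 36 of 47 G2 and mitosis genes with an entry held a CHR (76.6%), 37 a CCAAT (78.7%) and 30 both (63.8%). Over all 27025 symbols the shares were 21.7%, 41.1% and 8.61%. A CHR was held by 7 of 33 S phase genes (21.2%), 1 of 19 neurogenic genes (5.26%) and 3 of 12 neuron genes (25%). The CCAAT box was about as frequent in these lists as in the mitotic one, in 69.7%, 73.7% and 66.7% of their genes. TTCGAA reads the same on both strands and was counted once, and the 2 motifs were searched independently, so matches may share a base. A match is a description of letters and not a mapped site. Below, Cdk1 and Top2a hold several copies of both, Cdc25b 1 copy of each, and Nusap1 neither; Gadd45g of the neurogenic list holds a CCAAT alone. Matches are in capitals, and each sequence runs 5′ to 3′ on the gene's own strand.
Cdk1 (chr10:69352863-69353162, minus): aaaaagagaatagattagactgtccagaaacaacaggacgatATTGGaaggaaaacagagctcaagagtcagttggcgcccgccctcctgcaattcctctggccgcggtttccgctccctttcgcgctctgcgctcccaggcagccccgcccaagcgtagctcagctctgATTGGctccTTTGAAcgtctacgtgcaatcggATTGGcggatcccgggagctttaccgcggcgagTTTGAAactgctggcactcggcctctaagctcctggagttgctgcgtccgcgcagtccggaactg
Top2a (chr11:99024140-99024439, minus): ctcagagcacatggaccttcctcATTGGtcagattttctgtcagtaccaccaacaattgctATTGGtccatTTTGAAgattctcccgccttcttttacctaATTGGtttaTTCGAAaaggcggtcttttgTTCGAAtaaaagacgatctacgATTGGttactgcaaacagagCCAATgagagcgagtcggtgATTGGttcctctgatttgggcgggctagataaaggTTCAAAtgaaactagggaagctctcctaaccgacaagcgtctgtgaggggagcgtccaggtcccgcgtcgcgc
Cdc25b (chr2:131186698-131186997, plus): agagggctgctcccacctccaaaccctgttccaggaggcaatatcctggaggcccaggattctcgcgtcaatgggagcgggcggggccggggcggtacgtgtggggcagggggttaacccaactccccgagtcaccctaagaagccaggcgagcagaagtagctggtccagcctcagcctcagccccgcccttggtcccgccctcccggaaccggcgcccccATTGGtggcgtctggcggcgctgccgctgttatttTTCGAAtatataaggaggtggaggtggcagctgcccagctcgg
Nusap1 (chr2:119618048-119618347, plus): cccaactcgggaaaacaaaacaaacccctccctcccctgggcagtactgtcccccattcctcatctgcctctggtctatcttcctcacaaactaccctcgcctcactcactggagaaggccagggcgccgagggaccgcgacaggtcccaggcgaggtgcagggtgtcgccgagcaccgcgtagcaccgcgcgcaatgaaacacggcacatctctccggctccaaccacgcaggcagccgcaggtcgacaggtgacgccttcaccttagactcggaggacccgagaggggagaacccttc
Gadd45g (chr13:51846425-51846724, plus): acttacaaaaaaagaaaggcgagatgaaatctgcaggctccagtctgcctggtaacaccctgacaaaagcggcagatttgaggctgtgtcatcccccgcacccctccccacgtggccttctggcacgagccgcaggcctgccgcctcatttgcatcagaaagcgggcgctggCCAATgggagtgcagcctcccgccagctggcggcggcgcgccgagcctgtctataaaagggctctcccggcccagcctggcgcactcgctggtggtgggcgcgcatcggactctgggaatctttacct

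Genes of the step from progenitor to neuron stood above the other cells by larger median ratios than the mitotic list at days 7 and 8, and by a smaller one at day 10. Against mid/hindbrain their median was the larger on all 3 days. Among genes of at least 20 CPM on the higher side and of the same sign on every day, Insm1 led the 12 with the highest mean log2 ratio over the 3 days. Others of them were Gadd45g, Dll1, Cdc25b, Srrm4, Hes6, Dll3, Plk3, Onecut1, Btbd17 and Rassf4. Of the neurogenic list (22 genes, the class marker Insm1 among them), 15 of 18 that passed the level filter were at least 2-fold higher at day 7, 16 of 20 at day 8 and 13 of 21 at day 10. Olig3 at day 7, at 24.3 CPM in the class and 52.4 CPM in the other cells, was the 1 gene of the list at least 2-fold lower. List medians were 3.03, 1.80 and 1.10. Against mid/hindbrain, 16 of 18, 17 of 19 and 19 of 21 genes were 2-fold higher, with medians of 3.43, 3.09 and 2.30. The filter takes the mean of the 2 sides, so a gene near 0 in the reference passes only through its class level. Neurod4 at day 7, at 11.04 CPM in the class and 0.027 CPM in mid/hindbrain, is an example. Such genes are 2-fold higher by construction, which can raise these counts and medians.

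Gadd45g, a growth arrest gene, stood at 484.2, 276.2 and 466.7 CPM in the class, against 32.8, 63.1 and 153.7 CPM in the other cells. Dll1, a ligand that activates Notch in neighbouring cells (chr17:15367354-15376872, minus strand), stayed near 1 level, at 232.4, 197.3 and 199.0 CPM, against 27.3, 50.9 and 54.6 CPM. Dll3, which acts within the cell that carries it, stood at 75.6, 84.9 and 127.2 CPM against 5.85, 26.4 and 69.3 CPM. Hes6, an inhibitor of Hes1, stood at 148.7, 182.2 and 274.7 CPM against 20.5, 50.7 and 102.6 CPM. Srrm4, a splicing factor for neural microexons, stood at 177.9, 184.2 and 302.3 CPM against 14.0, 53.2 and 140.7 CPM. For Srrm4 and Hes6 the class level and the level elsewhere were both highest at day 10.

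Further members of the neurogenic list were lower in level. Neurog2 stood at 8.83, 19.7 and 85.4 CPM in the class against 0.696, 3.30 and 25.6 CPM in the other cells. Neurod1, which follows the neurogenins in many lineages, stood at 15.7, 27.6 and 104.9 CPM against 1.05, 3.30 and 12.8 CPM. Neurog1 stood at 11.8, 13.2 and 13.6 CPM against 0.851, 2.93 and 3.73 CPM. Neurod4 stood at 11.04, 53.3 and 43.6 CPM against 0.332, 3.62 and 5.82 CPM. The counting intervals of its class levels at day 8 (47.3 to 59.9) and day 10 (37.7 to 50.1) overlap. With the day 8 cells holding a Dbx1 UMI left out, its day 8 class level was 41.1 CPM. As examples of genes tied to control of the cycle, Btg2 and Ccnd2 are given. Btg2, an antiproliferative gene of neuron-producing divisions, stood at 111.4, 115.2 and 170.1 CPM against 35.5, 55.6 and 85.2 CPM. Ccnd2, a cyclin of G1, lay below the other cells at first, with 93.7, 142.8 and 299.0 CPM against 219.7, 239.9 and 259.4 CPM (log2 ratios -1.22, -0.74 and 0.20).

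**Figure D2:**
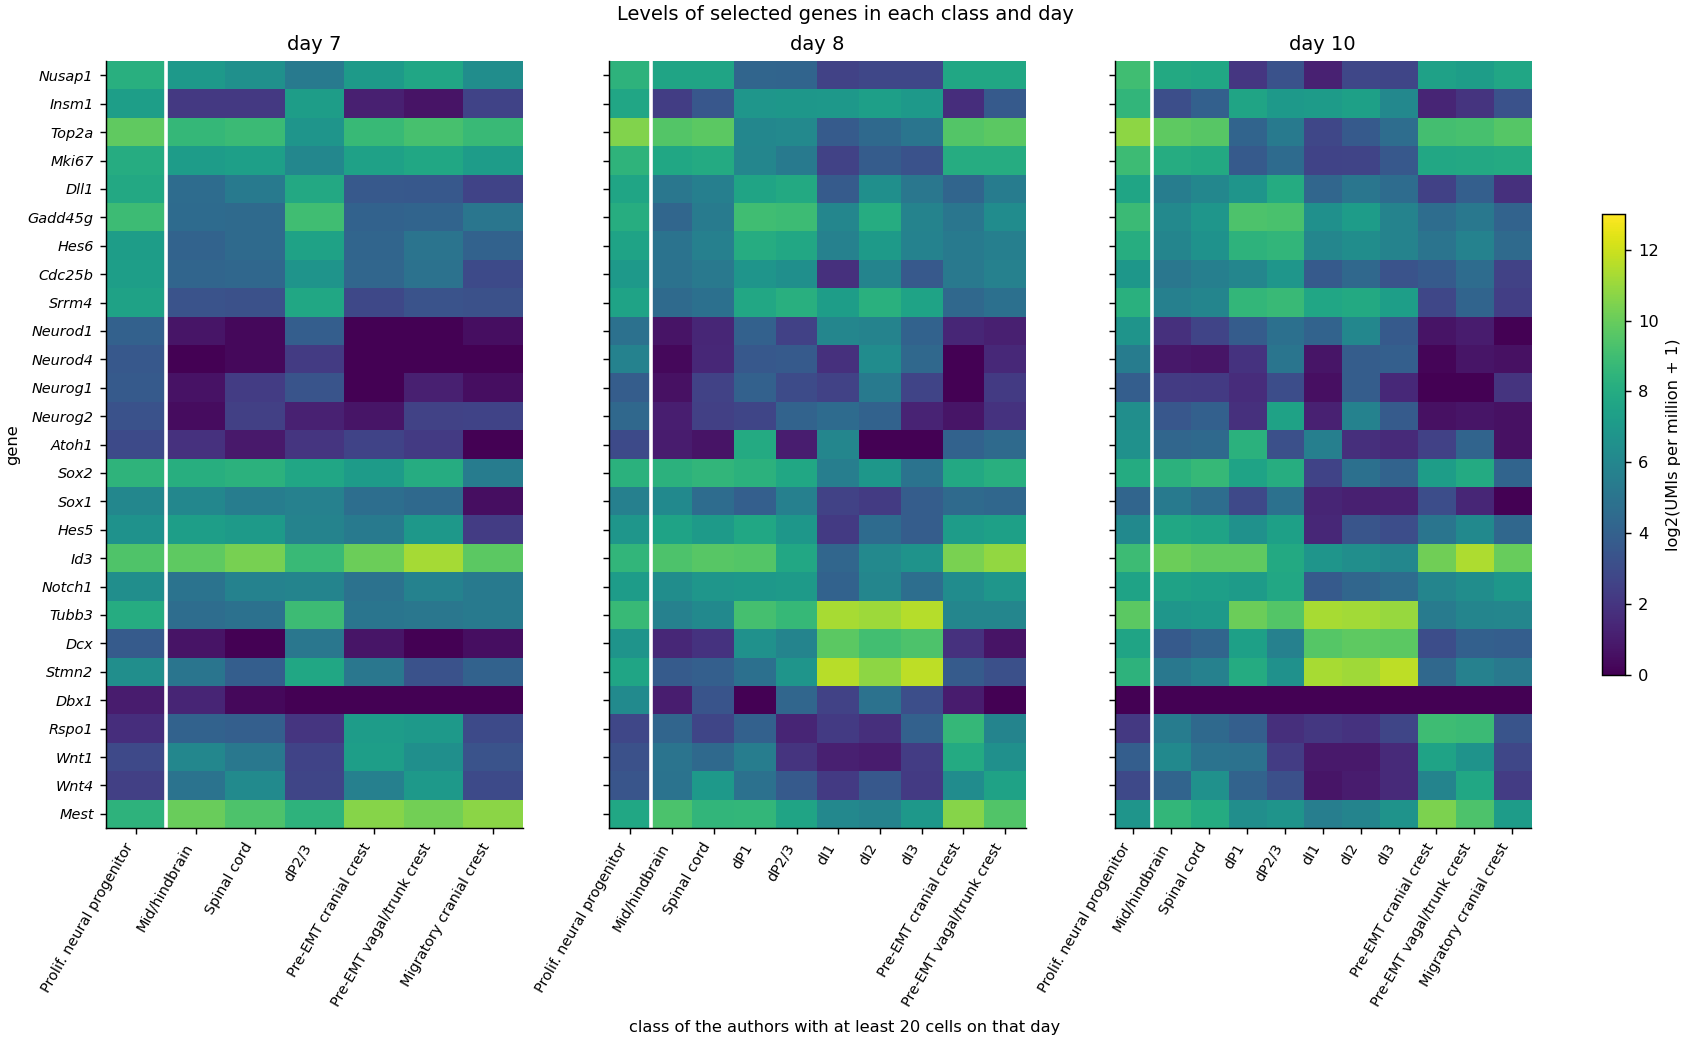
Heat map of pooled levels, as log2(CPM + 1), of selected genes (rows) in each class of at least 20 cells (columns; dP and dI are dorsal progenitor and dorsal interneuron classes) at days 7, 8 and 10. The class shares high Top2a and Nusap1 with mid/hindbrain, spinal cord and the pre-EMT crest classes. It shares high Dll1 and Insm1 with dP2/3 and, at days 8 and 10, with dP1. Insm1 is also high in the dI classes at days 8 and 10.

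Of the 12 genes with the lowest mean log2 ratio under that rule, Rspo1, Wnt4 and Wnt1 led, and all of them act as secreted signals. Counts at least 2-fold lower than in all other cells were 205 at day 7 (2.23% of genes), 84 at day 8 (0.896%) and 311 at day 10 (3.21%). The day 10 split, 335 higher and 311 lower, depends on scaling: with RLE size factors it was 400 higher and 220 lower. Genes higher at day 7 numbered 226 and at day 8 189. Rspo1, which strengthens Wnt signals, stood at 2.21, 5.86 and 3.50 CPM against 24.2, 25.5 and 81.7 CPM. Wnt1, a ligand of the dorsal midline and midbrain, stood at 6.38, 8.51 and 14.0 CPM against 65.6, 33.3 and 49.9 CPM. Wnt4 stood at 4.42, 9.84 and 6.35 CPM against 32.6, 52.6 and 27.3 CPM. Mest, an imprinted gene, stood at 340.1, 212 and 110.5 CPM against 1067, 555.7 and 336.1 CPM. The matrix genes Sparc, at 52.0, 25.5 and 29.8 CPM against 153.2, 67.7 and 95.6 CPM, and Col2a1, at 24.3, 14.0 and 7.0 CPM against 69.8, 31.1 and 24.0 CPM, followed. Ccn1, Snhg4, C1ql1, Acaa2, Sfrp2 and Ndn complete the 12, and each lay below the other cells on all 3 days. Rspo1, Wnt1 and Wnt4 were also lower than in mid/hindbrain on every day, with log2 ratios from -3.29 to -1.32. Low levels were not particular to the class. In dP2/3 Rspo1 stood at 2.95, 1.51 and 2.31 CPM and Wnt1 at 5.06, 2.86 and 3.90 CPM. Wnt4 stood there at 5.48, 11.9 and 7.94 CPM and Mest at 333.3, 189.3 and 104.9 CPM. The other cells at day 10 include pre-EMT cranial neural crest, with Rspo1 at 499.1 CPM and Wnt1 at 182.6 CPM.

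Against mid/hindbrain alone, the 10 genes with the highest mean log2 ratio under that rule were Insm1, Tfap2b, Onecut1, Ebf3, Dll3, Tlx3, Ebf1, Gadd45g, Plk3 and Srrm3. Tfap2b, a factor of dorsal interneurons and neural crest, stood at 53.7, 84.2 and 193.1 CPM in the class and at 0.409, 2.64 and 8.85 CPM in mid/hindbrain. Ebf3, a helix-loop-helix factor of young neurons, stood at 25.3, 56.2 and 151.9 CPM and at 0.682, 1.39 and 8.85 CPM. Ebf1, its relative, stood at 69.9, 134.1 and 384.2 CPM and at 6.67, 9.50 and 22.1 CPM. On the lower side, 2.27%, 1.39% and 2.64% of all genes were 2-fold lower, led under the same 20 CPM rule by Wnt1, Sparc, Sfrp2, Mest, Col2a1, Snhg4, Ccn1, 2010204K13Rik, Acaa2 and Eif4ebp1. Sfrp2, a secreted Wnt modulator, stood at 88.6, 117.5 and 41.2 CPM in the class and at 203.6, 316.3 and 242.4 CPM in mid/hindbrain.

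Progenitor genes were retained in part. At days 7 and 8 the 16 neural progenitor genes had medians of 0.03 and -0.19 against mid/hindbrain, with 2 and 0 genes at least 2-fold higher and none 2-fold lower. At day 10 the median was -0.58, and 6 of 16 were at least 2-fold lower: Sox1, Sox9, Fabp7, Hes1, Hes5 and Id3. Hes5, a Notch target that holds cells as progenitors, stood at 96.2, 112.7 and 70.7 CPM in the class and at 157.0, 184.8 and 216.5 CPM in mid/hindbrain. Hes1, another Notch target, stood at 44.2, 16.6 and 11.4 CPM and at 36.7, 27.1 and 31.2 CPM. Sox2, a factor of neural progenitors, stood at 353.1, 310.2 and 255.5 CPM and at 286.5, 320.5 and 323.3 CPM. The receptors parted. Notch1 stood at 84.7, 143.9 and 187.6 CPM in the class and at 29.8, 83.1 and 176.0 CPM in mid/hindbrain, while Notch3 stood at 2.45, 3.40 and 6.35 CPM and at 9.21, 13.9 and 25.5 CPM. Across the Notch list 6 of 16, 4 of 15 and 2 of 15 genes were 2-fold higher than in all other cells and 1, 1 and 2 were 2-fold lower. T, the gene reported by the line's Bra::mCherry, was at 0.491, 0 and 0 CPM in the class.

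Neuronal transcripts were already present. Against mid/hindbrain, 9 of 14, 14 of 16 and 16 of 18 neuron genes were at least 2-fold higher, with medians of 1.35, 2.54 and 2.36. Here too a gene near 0 in mid/hindbrain, such as Dcx at day 7, passed the filter only through its class level. Tubb3, the neuronal tubulin, stood at 263.6, 428.4 and 851.3 CPM in the class and at 23.8, 51.6 and 112.9 CPM in mid/hindbrain. Dcx, a microtubule protein of migrating neurons, stood at 12.3, 103.3 and 192.4 CPM and at 0.582, 1.69 and 11.8 CPM. Neuronal transcripts were not particular to the class. In dP2/3 Tubb3 stood at 479.7, 418.4 and 745.6 CPM and Dcx at 34.6, 57.2 and 52.0 CPM, both above the class at day 7 and below it at days 8 and 10. Set against all other cells, the list medians were 1.02, 0.36 and -0.49, and at day 10 none was 2-fold higher and 6 of 18 were 2-fold lower. Stmn2, a growth cone protein, stood at 83.7, 196.2 and 343.5 CPM in the class and at 41.7, 195.8 and 846.5 CPM in all other cells. Both Sox2 and Tubb3 were found in 61.0%, 70.3% and 61.4% of class cells at 10000 UMIs, against 62.3%, 71.0% and 63.6% by independence.

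**Figure D3:**
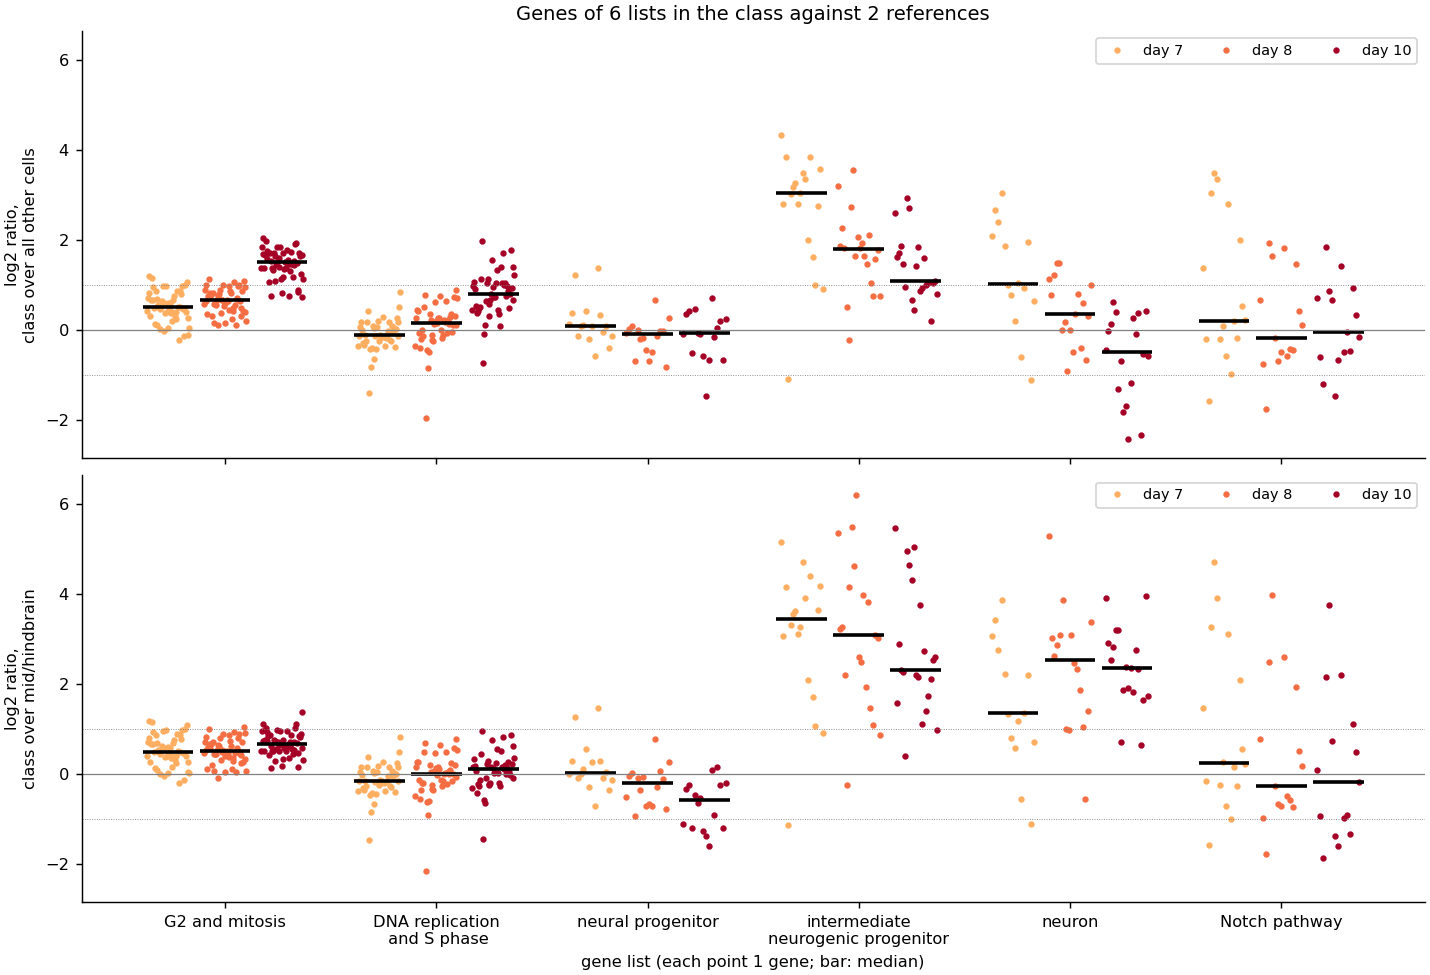
Log2 ratios of the genes of 6 lists (points) and their medians (bars), class over all other cells (top) and class over mid/hindbrain (bottom), at days 7, 8 and 10. Dotted lines mark 2-fold. The G2 and mitosis medians lie above 0 on each day (0.51, 0.66 and 1.50 against all other cells), and the neuron list at day 10 lies at -0.49 against all other cells but 2.36 against mid/hindbrain.

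The closest classes differed by day. Across genes, which are not independent, Pearson's r of pooled log levels was highest with dP2/3 at day 7 (0.963, against 0.955 with mid/hindbrain) and with mid/hindbrain at day 10 (0.933, against 0.903 with dP2/3). At day 8 spinal cord (0.9498), mid/hindbrain (0.9493) and dP2/3 (0.943) lay close together, and with the cell cycle lists left out dP2/3 stood at 0.9497 beside 0.9492 for spinal cord. The dP2/3 class also had neurogenic genes, some of them at other levels than the class. Its Dll1 stood at 229.5, 233.8 and 254.4 CPM and its Gadd45g at 524.8, 472.6 and 618.1 CPM. At day 10 its Neurog2 stood at 180.4 CPM, against 85.4 CPM in the class, and its Neurod1 at 27.3 against 104.9 CPM. It had few mitotic transcripts, with Nusap1 at 40.1, 17.5 and 8.81 CPM and Top2a at 107.6, 69.7 and 40.0 CPM. Its Insm1, at 148.5, 117.5 and 129.6 CPM, was near the class level at day 7 and far below it at day 10 (157.5 and 381.3 CPM in the class).

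Nearly every class cell carried more G2 and mitosis transcripts than most interneurons did. Without Nusap1, the list took a median of 1.34% of a class cell's UMIs at day 7 (10th to 90th percentile 0.637 to 1.87), 1.78% at day 8 (0.862 to 2.62) and 2.10% at day 10 (0.770 to 3.15). Medians were 0.834%, 1.09% and 1.14% in mid/hindbrain and 0.677%, 0.271% and 0.195% in dP2/3. Taking as a line the 90th percentile of interneurons at day 10, 0.208%, 82 of 82, 159 of 159 and 157 of 158 class cells lay above it. So did 2107 of 2108, 1745 of 1746 and 996 of 1035 mid/hindbrain cells. The neurogenic list without Insm1 took 0.195%, 0.213% and 0.324% in the class, 0.0403%, 0.0432% and 0.0600% in mid/hindbrain, and 0.244%, 0.265% and 0.411% in dP2/3. By these medians the class lay above mid/hindbrain in mitotic share and between mid/hindbrain and dP2/3, nearer to dP2/3, in neurogenic share.

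**Figure D4:**
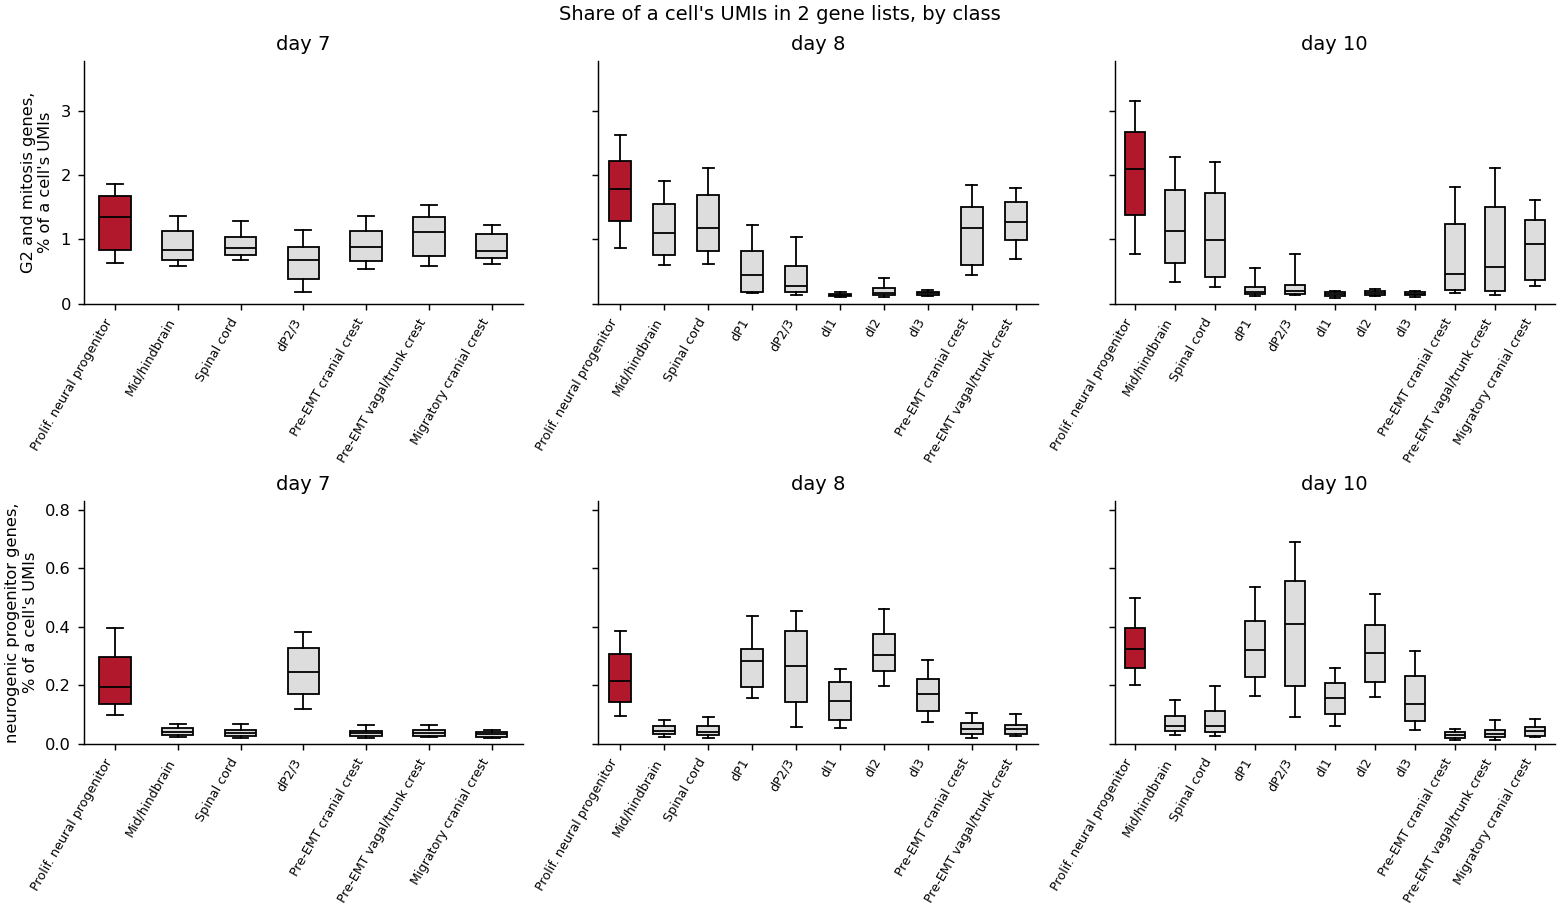
Share of each cell's UMIs (percent) from the G2 and mitosis list without Nusap1 (top) and the neurogenic list without Insm1 (bottom), by class at days 7, 8 and 10. Boxes span the quartiles with the median as a line, whiskers run to the 10th and 90th percentiles, and the class median of the mitotic share is 1.34%, 1.78% and 2.10%.

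Within the class, cells spread along the cycle and along differentiation. Over class cells, Spearman's rho between the mitotic and the S phase share was -0.68, -0.48 and -0.48 (82, 159 and 158 cells that share a library). Between the neural progenitor and the neuron share it was -0.15, -0.64 and -0.72. Between the mitotic and the neurogenic share it was 0.14, 0.21 and 0.27. Shares of 1 cell compete for the same total, so these values describe and are not tested. The neuron share at day 10 ran to 0.728% at the 90th percentile, beside a median of 0.239%.

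The proneural factor differed between class cells and over days. At 10000 UMIs, Neurog2 was found in 3.66% of class cells at day 7 (0.761 to 10.3), 11.4% at day 8 (6.89 to 17.4) and 34.2% at day 10 (26.8 to 42.1). Atoh1, the factor of the most dorsal interneuron domain, was found in 4.88% (1.34 to 12.0), 3.16% (1.04 to 7.23) and 24.7% (18.2 to 32.2). In the other cells Neurog2 was found in 0.444%, 3.09% and 13.3% and Atoh1 in 2.59%, 2.36% and 14.1%. At day 10 Atoh1 met Neurog2 in 2 cells (1.27%, where independence gives 8.44%) and the interneuron factor Lhx1 in 0 of 158 cells (exact upper limit 2.31%, where independence gives 5.16%). It met Olig3, a factor of the same dorsal domains, in 28 cells (17.7%, where independence gives 11.9%). These pairs were picked after their values were seen and carry no test.

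Class cells were split by Atoh1 at day 10 and by Dbx1 at day 8, both splits chosen after the values were seen. At day 10, 45 of 158 class cells had an Atoh1 UMI (28.5%, all UMIs used). In the cells with Atoh1, Barhl1, a factor that marks the Atoh1 lineage, stood at 211 CPM, against 8.98 CPM in the 113 without. Lhx1 stood at 4.14 against 69.6 CPM and Neurog2 at 12.4 against 119 CPM. Mitotic levels were alike, with Top2a at 1712 against 1781 CPM and Nusap1 at 550 against 493 CPM. At day 8, 24 of 159 class cells (15.1%) had a UMI of Dbx1, a homeobox factor of intermediate progenitor domains (chr7:49631499-49636849, minus strand), with 394 such UMIs in all. In these cells Lhx1 stood at 293 against 11.1 CPM in the 135 without Dbx1, Nhlh2 at 876 against 67.9 CPM and Insm1 at 700 against 154 CPM. The dorsal factors Zic1, at 3.86 against 211 CPM, and Msx3, at 1.93 against 390 CPM, were nearly missing. The cells with Dbx1 held a median of 20730.5 UMIs, against 33080 in those without, and the part of depth in this split was not tested. Dbx1 UMIs also occurred in 25 of 296 dP2/3 cells (8.4%) and 42 of 676 spinal cord cells (6.2%) at day 8. Among neurons they occurred in 3 of 34 cells of dorsal interneuron 1 (8.8%), 6 of 98 of dorsal interneuron 2 (6.1%) and 4 of 140 of dorsal interneuron 3 (2.9%).

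**Figure D5:**
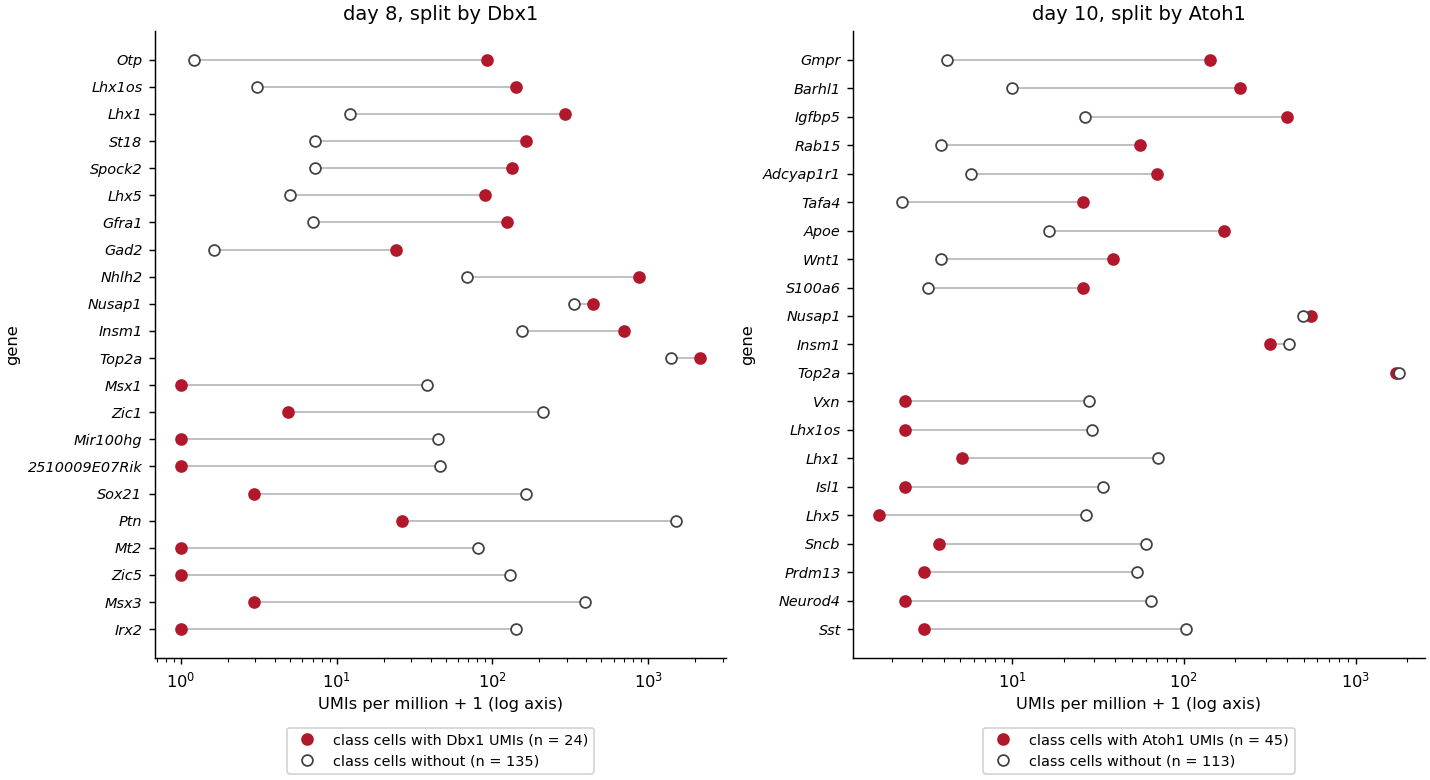
Pooled levels (CPM + 1, log axis) of selected genes in class cells with and without Dbx1 UMIs at day 8 (24 and 135 cells) and with and without Atoh1 UMIs at day 10 (45 and 113 cells). Lhx1 is higher in cells with Dbx1 and lower in cells with Atoh1, while Top2a and Nusap1 differ by less than 2-fold in both splits.

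Between days, few genes of the class stood 2-fold apart. At day 8 over day 7, 339 of 9213 genes were at least 2-fold higher (3.68%) and 111 lower (1.2%), and at day 10 over day 8, 318 of 9357 were higher (3.4%) and 125 lower (1.34%). In the other cells the steps gave 3.04% and 1.50%, then 6.30% and 0.854%. The first step was led by Dbx1, at 74.5 CPM at day 8 against 0.982 CPM at day 7, then Robo3, Sst, St18, Lhx1, Pou2f2, Fat4, Tle5, D930028M14Rik and Nhlh2. Lhx1 stood at 38.8 against 1.23 CPM and Nhlh2 at 147 against 12.5 CPM. Without the 24 Dbx1 cells, the log2 ratio of Lhx1 to the other cells at day 8 was 1.67, against 3.38 with them, and the class had 296 genes higher and 98 lower at this step. The lower side was led by Cck, a neuropeptide gene, at 0.946 CPM at day 8 against 62.6 CPM at day 7, where the other cells' log2 step was -0.75. Krt8, a keratin of simple epithelia, stood at 5.86 against 51.0 CPM.

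The second step brought later neural genes. Bcl11a, a zinc finger factor, stood at 95.9 CPM at day 10 against 2.08 CPM at day 8, a log2 step of 4.97 beside 5.24 in the other cells. Atoh1 stood at 94.6 against 6.62 CPM (3.65 beside 2.71) and Barhl1 at 73.1 against 3.78 CPM. Nfib, a factor of later, gliogenic progenitors, stood at 33.1 against 1.32 CPM. Dbx1 was at 0 CPM at day 10 against 74.5 CPM at day 8, and at 0 against 4.56 CPM in the other cells. Lin28a, an RNA-binding protein of early progenitors, stood at 9.41 against 40.7 CPM. Prtg, a receptor of the early neural tube, stood at 23.6 against 197 CPM. Onecut2 parted from the other cells, at 48.2 against 188 CPM (log2 -1.95), where their step was 0.38. The G2 and mitosis list had medians of 0.27 and 0.21 over these steps in the class, with no gene of the list 2-fold apart.

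Markers of other cell types were summed per list. Neural crest markers, a list that holds Tfap2b, stood at 294, 380 and 592 CPM in the class and at 271, 367 and 534 CPM in the other cells, with 4, 3 and 1 of 16 at 0. Sox10, the defining gene of that list, was at 0.245, 0 and 1.09 CPM, against 2.92, 1.28 and 9.56 CPM. Mesenchyme markers summed to 10.6, 7.8 and 12.3 CPM against 29.4, 11.2 and 27.7 CPM, with 8, 7 and 6 of 15 at 0. Surface ectoderm markers summed to 98.4, 20.2 and 12.3 CPM against 61.9, 18.5 and 20.8 CPM, and pluripotency markers to 25.5, 13.8 and 10.5 CPM against 36.2, 16.9 and 15.0 CPM. Their part in the differences above was not tested.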

How the data were processed

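Single cells of pooled organoids were captured with a 10x 3′ kit. Per the submitters' processing notes, reads went through Cell Ranger 3.1 with mm10. The authors deposited UMI counts per gene and cell, with a cell annotation that gives class names, cluster numbers and the mitochondrial percent of each cell; how cells were filtered, clustered and named, and how doublets were treated, is not given in the sources used here. All deposited cells have at least 3002 detected genes and at most 9.97% mitochondrial counts. The authors' score columns, a 2-dimensional UMAP embedding per the file headers, were not used. No doublet caller was run.

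Counts were summed per class and library and divided by the pool's total (CPM). Ratios are log2 with 1 CPM added to each side. Genes were kept where the 2 sides average at least 5 CPM, and called apart at 2-fold. With 1 library a day in the time course, no test was run. To compare shares of cells, each cell was thinned to 10000 UMIs. Named genes are the 12 highest and 12 lowest by mean log2 ratio over the 3 days (10 and 10 for mid/hindbrain and for each day step), among genes with at least 20 CPM on the higher side and, over several days, the same sign on each; other genes named are examples from the lists, and some genes that the rule takes are not reported here. The class, its markers and the gene lists were chosen with earlier results of these data known. Calculations used Python 3.11.15 with numpy 2.4.6, scipy 1.17.1 and pandas 2.3.3, and edgeR 4.0.16 for the scaling alternatives. The calling step was tested on simulated counts. Gene positions are from GENCODE vM21 on mm10.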

Additional observations from a re-analysis of the deposited data

Results flagged for a closer look

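Levels of the G2 and mitosis list differed between day 8 and day 10 in opposite directions in the class and outside it. Its median log2 step, day 10 over day 8, was 0.21 in the proliferative neural progenitor class and -0.66 in the other cells pooled. Each side is 1 library a day, and the difference between the 2 steps was not tested. The make-up of the other cells also differed between the days: interneurons were 272 of their cells at day 8 and 1176 at day 10.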

How the results depend on the processing

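No paired analysis was possible because each day of the time course has 1 library and no replicate could be left out. For Nusap1, Insm1 and the genes named against all other cells, the direction of the mean ratio held under all alternatives run. The size of these mean ratios moved beyond counting error in 99 cases and stayed within it in 126. Mean ratios to mid/hindbrain and steps between days were not varied gene by gene. Of the counts of 2-fold genes, 75 of 118 stayed within 1.5 times the count reported. The others follow, with the cause not tested unless the setting itself tests more or fewer genes. With 5 CPM added, counts of lower genes at days 7, 8 and 10 were 81, 25 and 118 (205, 84 and 311 as reported), of higher genes at day 8 109 (189); the day 8 over 7 step gave 174 and 48 (339 and 111), the day 10 over 8 step 199 and 61 (318 and 125). With a mean of at least 1 CPM, lower genes were 430, 169 and 636, and the steps gave 644 and 244, then 540 and 255. With at least 20 CPM, higher genes at days 7 and 8 were 118 and 107, lower genes 47, 19 and 87, and the steps gave 119 and 28, then 156 and 46. With no level filter, higher genes at day 7 were 357 (226), lower genes 475, 187 and 715, and the steps gave 748 and 285, then 598 and 309. With cells thinned to 10000 UMIs, lower genes were 439, 215 and 485, and the steps gave 605 and 264, with 259 lower at the second. Without the 5% of cells with most UMIs, lower genes at day 10 were 478. With other classes weighted equally, day 8 had 254 higher and 255 lower genes, of which 59 and 37 were among the 189 and 84 reported. Against mid/hindbrain, higher genes at days 8 and 10 were 341 and 511 and lower genes at day 8 130. At day 10, 98 of the 335 genes higher than all other cells were also higher than mid/hindbrain (29.3% of 335 and 19.2% of 511).

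The class share at day 10 was 5.19% among cells with at most 5% mitochondrial UMIs and 7.58% among neural progenitor classes (4.30%). Detection followed depth. At 5000 UMIs, Nusap1 was found in 61.0%, 72.3% and 77.2%, Insm1 in 47.6%, 46.5% and 63.9% and both in 29.3%, 35.2% and 52.5%. Not thinned, the shares were 92.7%, 96.2% and 94.3%, then 80.5%, 80.5% and 86.1%, then 74.4%, 76.7% and 81.6%. Of the list medians, 3 changed sign at day 10 with mid/hindbrain in place of all other cells: neuron (2.36 against -0.49), dorsal progenitor domains (-0.17 against 0.18) and dissociation stress (0.12 against -0.21). With the Dbx1 cells left out, chosen after seeing the data, day 8 had 138 genes higher and 70 lower than the other cells.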

Other observations

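Hox genes, which mark hindbrain and spinal levels, were 2-fold higher at day 8 than at day 7 for 12 of 18 in the class and 12 of 19 in the other cells, with medians of 1.79 and 1.72 on the log2 scale; over all genes 3.68% and 3.04% were. At day 10 over day 8 it was 5 of 19 higher and 5 lower in the class, and 8 of 20 higher and 2 lower in the other cells. Against mid/hindbrain, 12 of 18 were 2-fold higher in the class at day 8 and 8 of 17 at day 10, where 3.65% and 5.42% of all genes were. Hox genes near 0 on 1 side pass the level filter only through the other side, which can raise these counts. Hoxb9, a gene of trunk levels, stood at 10.8, 60.5 and 14.4 CPM in the class at days 7, 8 and 10, against 0.509, 2.58 and 0.896 CPM in mid/hindbrain. Hoxb1, a gene of early hindbrain, stood at 81.5 CPM in the class and 18.4 CPM in all other cells at day 7. Of the hypoxia and glycolysis list, 10 of 15 genes were 2-fold higher at day 10 than at day 8 both in the class and in the other cells (medians 1.22 and 1.27), where 3.4% and 6.30% of all genes were. At day 8 over day 7 none was 2-fold higher in either (medians -0.32 and -0.33).

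Dorsal interneuron factors were present in the dividing class. At day 10, 12 of 13 that passed the level filter were 2-fold higher than in mid/hindbrain (median 3.34), where 5.42% of all genes were, and 9 of 14 were 2-fold higher than in the class at day 8 (median 1.28), where 3.4% of all genes were. Lists and genes here were picked with values known, and none of these differences was tested.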
